A study of Arabidopsis thaliana with 124 samples.

Results

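The light-harvesting antenna genes described here encode the chlorophyll-binding proteins that surround photosystem II in Arabidopsis thaliana. They are 9 of the 27432 protein-coding genes measured: LHCB1.1 (AT1G29920), LHCB1.2 (AT1G29910), LHCB1.3 (AT1G29930), LHCB2.1 (AT2G05100), LHCB2.2 (AT2G05070), LHCB3 (AT5G54270), LHCB4.1 (AT5G01530), LHCB5 (AT4G10340) and LHCB6 (AT1G15820). They were chosen by gene code, not by binding. A factor was counted at a gene when the summit of at least 1 of its peaks lay inside the gene or within 2000 bp of it. By this rule the binding of 21 transcription factors was described at each of the 9 genes, under abscisic acid (ABA), a plant hormone of water stress, seed dormancy and stomatal closure, and under mock treatment.

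The LHCB proteins bind chlorophyll a and b and pass absorbed light energy to photosystem II. LHCB1, LHCB2 and LHCB3 assemble into the trimers of the major antenna complex LHCII, while LHCB4, LHCB5 and LHCB6 are the monomeric minor antennae CP29, CP26 and CP24, which sit between the trimers and the photosystem core. Their genes are in the nucleus, are expressed at low levels in seedlings kept in the dark and are switched on by light, and G-box elements and CCAAT boxes are among the promoter elements known from genes of photosynthesis.

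Binding was measured by ChIP-seq in whole Col-0 seedlings grown for 3 days in the dark. Each line carried 1 factor fused to the fluorescent protein YPet, made by recombineering within the factor's genomic clone, and the fusion was precipitated with an antibody against GFP. The ABA group of each factor had 4 h of 10 µM ABA, and its mock group had 4 h of ethanol. The 122 tagged libraries comprised 3 per treatment for 19 of the factors and 2 per treatment for the other two, ANAC102 and ZAT6. The 2 control libraries were GFP antibody precipitates of Col-0 without a tag, both labelled as ABA treated, and they have no list of their own here. No antenna gene product was measured, so the seedlings' content of LHCB transcripts or proteins is not known from these data.

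The data are 42 peak lists, 1 per factor and treatment, each made by the authors from pooled replicates. No value therefore has a replicate error, and read depth is unknown. Whether the pooled replicates were separate cultures is not stated. The lists held between 15 and 18096 peaks, and the ABA list was the longer one for 19 of the 21 factors. All the fold enrichments and −log10 p values below are the authors' values for single peaks. They rank peaks within a list and do not measure a change between lists.

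Of the 9 antenna genes, 8 had peaks of at least 3 factors in each treatment, and LHCB1.2 had none in any of the 42 lists. LHCB4.1 and LHCB6 carried the most factors, 16 each under ABA against 14 at LHCB4.1 and 13 at LHCB6 under mock. LHCB1.1, LHCB1.3 and LHCB2.1 had 10 factors each under ABA, against 9, 9 and 8 under mock. LHCB2.2 had 7 in either treatment, LHCB5 had 6 and LHCB3 had 3. The median antenna gene thus had 10 factors under ABA and 8 under mock, beside 9 and 5 for the median of all protein-coding genes. At least 10 factors were present at 5 of the 9 genes under ABA, where 48.1% of all genes had as many, and at 2 under mock, where 30.3% did. Having no factor in either treatment, as at LHCB1.2, was shared with 12.1% of all genes.

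**Figure D1:**
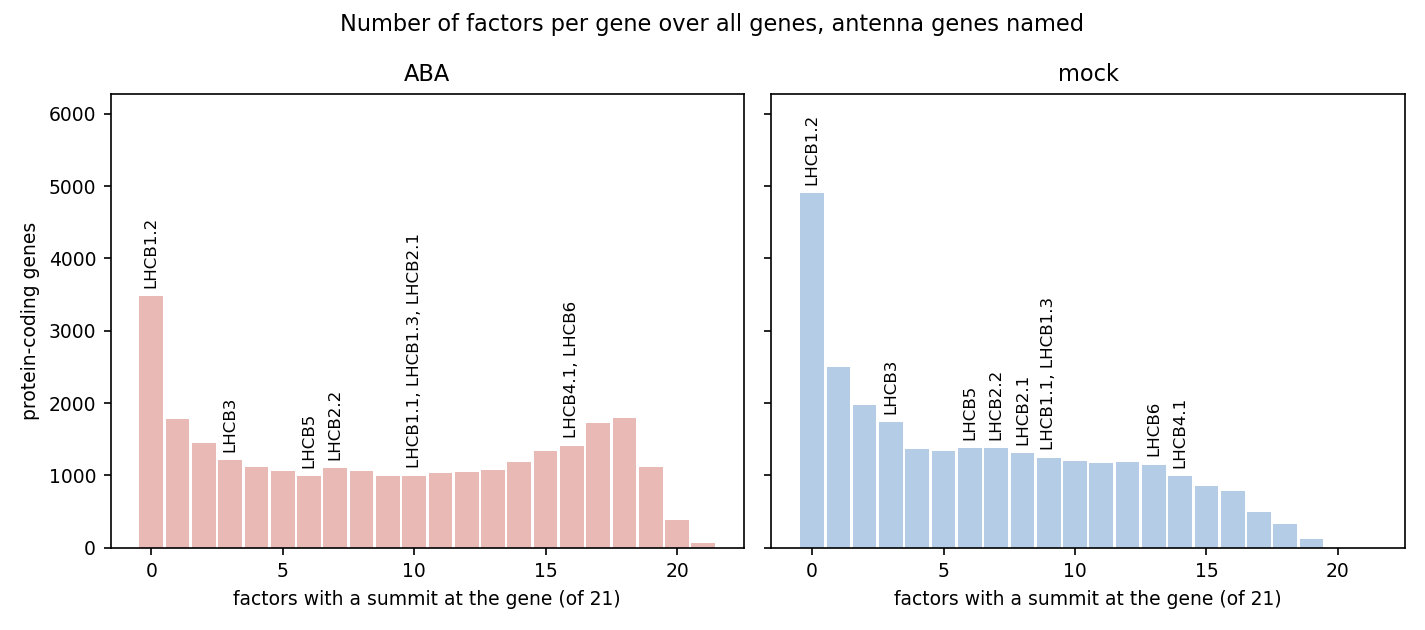
Number of protein-coding genes (vertical axis) by the number of factors with a summit at the gene (horizontal axis, of 21), for the ABA lists on the left and the mock lists on the right. Antenna genes are named above the bar they belong to. They range from LHCB1.2 at 0 to LHCB4.1 and LHCB6 at 16 under ABA, with LHCB3 at 3 in both panels. No antenna gene had more than 16 factors, while the ABA bars extend to 21.

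The genes differed widely in their place among all genes. LHCB4.1 and LHCB6 exceeded 76.3% of all genes in number of factors under ABA, and 86.9% and 82.7% under mock. LHCB3 exceeded 24.5% of genes under ABA and 34.2% under mock, and LHCB5 exceeded 36.9% and 50.4%. Carrying many of these factors was thus not a property the 9 genes had in common.

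Counted as pairs of a gene and a factor, 78 of 189 possible pairs (41.3%) had a peak under ABA and 69 (36.5%) under mock. Over all protein-coding genes the shares were 43.1% under ABA and 30.1% under mock, so the antenna genes lay close to the background under ABA and above it under mock. The same 64 pairs were present in both treatments, though not always at the same site. A further 14 were present under ABA alone and 5 under mock alone. Over all protein-coding genes, 165442 of 576072 possible pairs were present in both treatments, 82879 under ABA alone and 8186 under mock alone. Gains made up 73.7% of the changes at the antenna genes and 91% of those over all genes. When the 2 lists of each factor were shortened to the same number of peaks by −log10 p, the order at the antenna genes turned round, with 62 pairs (32.8%) under ABA and 67 (35.4%) under mock. Over all genes the shares at equal length were 30.5% under ABA and 29.8% under mock, in the same order as before. LHCB1.1 and LHCB1.3 share all their peaks and were joined with LHCB1.2, which has none, into a single LHCB1 locus. The peakless LHCB1.2 is thus not counted as a locus of its own. At the resulting 7 loci, 68 of 147 pairs had a peak under ABA, 60 under mock and 56 in both.

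No antenna gene passed the test for a change in the number of factors. The number of factors gained under ABA was set against the number lost in an exact two-sided sign test, for each of the 22695 genes with any change, with Benjamini-Hochberg adjustment over them. It called 0 genes, with a lowest adjusted p of 0.14, while 3882 genes (17.1%) had an unadjusted p under 0.05 in the direction of more factors under ABA and 5 (0.022%) in the other. The test takes gains and losses as equally likely, while 91% of the changes over all genes were gains. A low p towards more factors under ABA was thus not set against that excess. LHCB6, with 3 factors gained and 0 lost, had the lowest p of the antenna genes at 0.25 (adjusted 0.455). LHCB2.1 and LHCB4.1 each gained 3 and lost 1 (p = 0.625, adjusted 0.832, exact sign test). No antenna gene had more than 4 changed factors, too few for a low p in this test. Since the test called no gene at all, not passing it does not set a gene apart, here or in the lists below. By count alone, 5 of the 9 genes had more factors under ABA than under mock, where 75.5% of all genes did. None had fewer, where 3.67% of all genes did, and LHCB1.2, LHCB2.2, LHCB3 and LHCB5 had equal numbers, as did 20.8%.

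**Figure D2:**
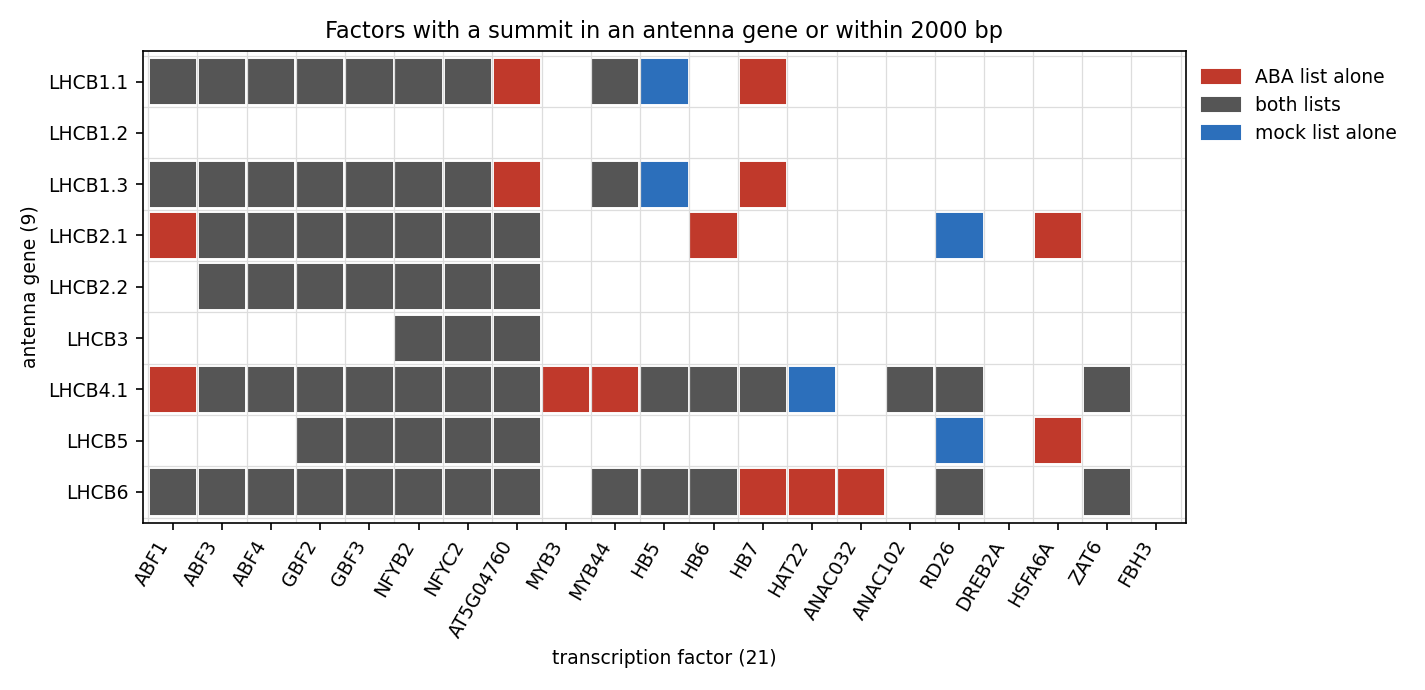
Presence of each of the 21 factors (columns) at each of the 9 antenna genes (rows), by a summit inside the gene or within 2000 bp. Red squares mark a peak in the ABA list alone, grey squares a peak in both lists and blue squares a peak in the mock list alone. The columns of NFYB2 and NFYC2 are grey at 8 of 9 genes, and those of DREB2A and FBH3 are empty.

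The factors found at 8 of the 9 antenna genes in both treatments were the 2 NF-Y subunits NFYB2 and NFYC2, parts of the trimeric complex that binds CCAAT boxes. NFYC2 had a peak at 8 of the 9 genes and 7 of the 7 loci under ABA and under mock, where 43.4% of all genes had one under ABA and 32.4% under mock. NFYB2 was also present at 8 genes in both treatments, but its lists reached 74% of all genes under ABA and 65.7% under mock. Within 500 bp both subunits were still at 8 genes in each treatment, where NFYC2 reached 28% of all genes under ABA and 20.3% under mock, and NFYB2 reached 55.6% and 47.3%. NFYC2 was thus above its background by the wider gap. The 8 genes of NFYB2 within 2000 bp lay near its background under ABA (74%). At that distance LHCB1.1 and LHCB1.3 are both counted through the same peaks. The lists of NFYB2 began at a −log10 p of 19.25 under ABA and 17.58 under mock rather than at 16, so its treatments were compared at unlike thresholds.

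The G-box binding bZIP factors GBF2 and GBF3 were each present at 7 genes and 6 loci in both treatments, LHCB3 and LHCB1.2 being the genes without them. GBF2 reached 50.1% of all genes under ABA and 48.7% under mock, and GBF3 reached 65.8% and 61.8%. The lowest −log10 p of the GBF3 list was 17.98 under ABA and 16 under mock. Together with NFYB2 and NFYC2 these factors form a set of 4, picked after the values were seen, that was complete at 7 of the 9 genes in each treatment. All 4 were found at 35.3% of all genes under ABA and at 27.4% under mock. Within 500 bp the set was still complete at 7 antenna genes in each treatment, where 20.1% of all genes held it under ABA and 15.5% under mock.

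The MYB-related factor AT5G04760 was present at 8 genes under ABA and 6 under mock, where 53.6% and 45.4% of all genes had it. The 2 genes it had under ABA alone were LHCB1.1 and LHCB1.3, which share the peak. ABF3 and ABF4, bZIP factors that act in ABA signalling through the ABA-responsive element, were each present at 6 genes in both treatments. ABF3 reached 54% of all genes under ABA and 45.1% under mock, and ABF4 reached 43.4% and 33.4%. ABF1, of the same family, was present at 5 genes under ABA and 3 under mock, where 41.9% and 14.6% of all genes had it.

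Factors of other families were found at a few antenna genes, mostly LHCB4.1 and LHCB6. MYB44 was present at 4 genes under ABA and 3 under mock (52% and 34% of all genes). The HD-ZIP factor HB7, whose gene is induced by ABA and drought, was present at 4 genes under ABA and 1 under mock (61.1% and 19.1% of all genes), and HB6 at 3 and 2 (53% and 46%). HB5 was present at 2 genes under ABA and 4 under mock (44.5% and 46% of all genes), and HAT22 at 1 in each treatment (42.9% and 34.9%). The HAT22 gene was LHCB6 under ABA and LHCB4.1 under mock. The NAC factor RD26, a stress-induced activator, was present at 2 genes under ABA and 4 under mock (55.9% and 37.5% of all genes). RD26 and HB5 were the only factors with fewer antenna genes under ABA than under mock. The zinc finger factor ZAT6 was present at 2 genes in each treatment (52.6% and 24% of all genes), ANAC102 at 1 in each (25.3% and 15.5%), and ANAC032 at 1 under ABA and 0 under mock (39.3% and 4.58%). MYB3 was present at 1 gene under ABA and 0 under mock (30.8% and 17.5% of all genes). These 4 factors were found at LHCB4.1 and LHCB6 and at no other antenna gene. The heat shock factor HSFA6A was present at 2 genes under ABA and 0 under mock, where its lists reached 11.1% and 0.27% of all genes. DREB2A and FBH3 had no peak at any antenna gene, and their lists reached 9.14% and 1.24% of all genes under ABA and 0.0875% and 6.5% under mock. Within 500 bp, RD26 was at 2 genes under ABA and 4 under mock, where 37.7% and 23.8% of all genes had it, and HB6 was at 3 and 2, where 35.2% and 29.7% did. At that distance the HB6 counts were thus near its background.

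LHCB1.1 and LHCB1.3, which encode LHCB1 proteins of the LHCII trimer, are neighbours on chromosome 1 and are separated by 1915 bp. All their peaks had summits in this interval, at 2 main sites and, for MYB44 under ABA, once between them. Within 200 bp of LHCB1.1, summits lay between 10476075 and 10476160 (TAIR10), at a median of 135.5 bp beyond the gene's higher-coordinate end. Under ABA this site held ABF3, GBF2, GBF3, NFYB2, NFYC2 and MYB44, and under mock it held GBF2, GBF3, NFYB2, NFYC2, MYB44 and HB5. Near LHCB1.3, summits lay between 10477769 and 10477845, at a median of 86.5 bp before the gene's lower-coordinate end. This site held ABF1, ABF3, ABF4, GBF2, GBF3, NFYB2, NFYC2, AT5G04760 and HB7 under ABA, and the first 7 of these under mock. GBF and NF-Y peaks were thus present beside both genes, while ABF1 and ABF4 were found beside LHCB1.3 alone.

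The strongest peaks of this interval within their own lists belonged to NFYC2 and NFYB2. The NFYC2 peak beside LHCB1.3 had a fold enrichment of 4.69 and a −log10 p of 106.86 under ABA (chr1:10477221-10478494), which ranked 891 of 8390. Under mock it had 4.51 and 93.46 (chr1:10477489-10478395), ranking 744 of 5781. The NFYB2 peak beside LHCB1.1 had 7.7 and 144.94 under ABA (chr1:10475885-10476307) and 5.78 and 119.16 under mock (chr1:10475918-10476314). The strongest NFYB2 peak thus lay beside LHCB1.1 and the strongest NFYC2 peak beside LHCB1.3, in both treatments. ABF1 beside LHCB1.3 had 3.27 and 55.43 under ABA (chr1:10477245-10477991), ranking 2261 of 8512, and 2.29 and 17.63 under mock (chr1:10477323-10477895), ranking 2139 of 2494. It was thus in the upper part of the long ABA list and near the end of the short mock list. The factors present under ABA alone were weak in their lists: AT5G04760 had 1.93 and 18.98 (rank 9625 of 11172) and HB7 had 2.22 and 26.3 (rank 9732 of 13565). HB5, present under mock alone, had a −log10 p of 16.03 and ranked 10008 of 10026, at the threshold of the list.

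LHCB1.2 lies 1153 bp below LHCB1.1 on the same chromosome and had no summit within 2000 bp. The nearest summit of any list was 2573 bp away on the side of LHCB1.1 and 4314 bp away on the other side. The LHCB1 genes are near-identical copies, and the sources used here do not give how reads that match several places were treated. The absence of peaks at LHCB1.2 is therefore uncertain, and the division of signal between the LHCB1 genes was not tested.

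LHCB2.1 and LHCB2.2 encode the LHCB2 proteins of the trimer and lie apart on chromosome 2. They too are close copies of each other, with the same limit. At LHCB2.2 the same 7 factors were present in both treatments: ABF3, ABF4, GBF2, GBF3, NFYB2, NFYC2 and AT5G04760. All 7 had summits between 1800459 and 1800519, within 47 bp of the gene's higher-coordinate end. GBF2 had a fold enrichment of 3.96 and a −log10 p of 98.95 there under ABA (chr2:1800276-1800932), ranking 280 of 10724, and 3.85 and 96.42 under mock (chr2:1800266-1800840), ranking 219 of 10329. Both ranks are within the top 3% of the list, while ABF3 and ABF4 ranked near the middle of theirs at the same site. ABF3 had 2.44 and 38.85 under ABA, ranking 5583 of 11273, and 2.54 and 41.43 under mock, ranking 3804 of 9243. A second site, 1333.5 bp in the median below the lower-coordinate end, held NFYB2 and NFYC2 and no other factor, in both treatments. There NFYB2 had 7.21 and 113.19 under ABA (chr2:1797717-1798055) and 5.89 and 106.84 under mock (chr2:1797710-1798060). NFYC2 was weak at this second site, with 2.4 and 21.23 under ABA and 2.39 and 19.97 under mock.

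At LHCB2.1, 9 factors under ABA and 8 under mock had summits between 1824463 and 1824585, at a median of 45 bp beyond the higher-coordinate end. The 7 factors of LHCB2.2 were present here too, in both treatments. NFYC2 had a fold enrichment of 5.4 and a −log10 p of 134.16 under ABA (chr2:1824028-1825295), ranking 198 of 8390, and 5.19 and 117.58 under mock (chr2:1824034-1825438), ranking 206 of 5781. NFYB2 had 9.65 and 184.61 under ABA (chr2:1824284-1825067), ranking 1474 of 18096, and 6.84 and 140.24 under mock (chr2:1824253-1825036), ranking 1603 of 14814. For both subunits in the ABA lists, and for NFYC2 in the mock list, this was the best rank at any antenna locus. ABF1, HB6 and HSFA6A were present under ABA alone. ABF1 had 2.35 and 22.54, HB6 had 1.97 and 16.39 (rank 11308 of 11513), and HSFA6A had 2.09 and 16.09 (rank 1843 of 1861), so that HB6 and HSFA6A were at the threshold of their lists. RD26 was present under mock alone, at both sites of the gene. Its peak below the lower-coordinate end (chr2:1822003-1823421) had 3.16 and 54.43 and ranked 862 of 7651, and the HSFA6A peak under ABA lay at the same place, with summits 33 bp apart.

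LHCB3, a single-copy component of some LHCII trimers, had the fewest factors of the genes with any. NFYB2, NFYC2 and AT5G04760 were present in both treatments, and no bZIP factor was present in either. All 6 summits lay inside the gene within 19 bp of each other, between 22038233 and 22038252 on chromosome 5, from 68 to 87 bp from the lower-coordinate end. NFYC2 had a fold enrichment of 4.77 and a −log10 p of 112.15 under ABA (chr5:22037725-22039663), ranking 735 of 8390, and 4.48 and 93.42 under mock (chr5:22037792-22040048), ranking 745 of 5781. NFYB2 had 4.9 and 59.29 under ABA (chr5:22038080-22038480), ranking 7678 of 18096, and 4.27 and 60.92 under mock (chr5:22037925-22038560), ranking 4647 of 14814. AT5G04760 had 2.47 and 40.14 under ABA (chr5:22037914-22038555) and 2.58 and 41.1 under mock (chr5:22037948-22038483). LHCB3 thus differed from the other bound antenna genes by the absence of GBF2 and GBF3, while its NFYC2 peak ranked within the range of the other loci in both treatments.

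LHCB4.1 encodes CP29 and had 16 factors under ABA and 14 under mock, of which 13 were present in both, though not always at the same site. Its summits fell into several sites, and some belong to its neighbours. At the site next to the gene's lower-coordinate end, between 208740 and 208907 on chromosome 5, summits lay within 126 bp of the end. It held ABF1, ABF3, ABF4, GBF2, GBF3, NFYB2, NFYC2, AT5G04760, HB6 and HB7 under ABA, and these without ABF1, HB6 and HB7 under mock. GBF3 had a fold enrichment of 4.65 and a −log10 p of 129.58 under ABA (chr5:208388-211314), ranking 1094 of 16320, and 4.62 and 132.63 under mock (chr5:208411-209596), ranking 1027 of 14247. ABF1 had 3.22 and 52.27 under ABA (chr5:208275-209013), which was the highest −log10 p of any antenna peak with no overlapping mock peak of its factor. In the ABA lists the peaks of ABF3, GBF3, NFYB2, NFYC2, AT5G04760, HB7, RD26, ZAT6 and MYB44 ran across the whole gene as single peaks, while most of the mock peaks were shorter. A summit then stands for only 1 of the places under such a peak.

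Beyond the higher-coordinate end, in the interval to the lectin receptor kinase gene LECRKA4.1, summits between 210650 and 210966 belonged to ABF1, HB5, HB6, ANAC102, RD26 and ZAT6 under ABA. GBF3, HB5, HB6, ANAC102 and RD26 were there under mock. RD26 had 2.25 and 36.98 under ABA (chr5:208119-211437), and 2.63 and 42.88 under mock (chr5:210349-211328). HB5, ANAC102 and RD26 had no summit at the lower-coordinate end, where the GBF2 and NFYC2 summits lay, although the RD26 peak under ABA reached across that end. MYB44 (2.5 and 51.27) and MYB3 (1.83 and 17.52) had summits inside the gene under ABA.

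A further site at LHCB4.1 lay inside the neighbour AIRP2, which encodes an E3 ubiquitin ligase that acts in ABA signalling. Between 207215 and 207428 it held 8 factors under mock (AT5G04760, HB5, HB6, HB7, HAT22, ANAC102, RD26 and ZAT6) and HB5 alone under ABA. All 8 of these factors had an ABA peak that overlapped their mock peak, but 7 of the 8 ABA summits lay beyond the 2000 bp limit, up to 3015 bp from LHCB4.1. For HAT22 the mock peak (chr5:206899-207598) had 2.72 and 50.1, and the overlapping ABA peak (chr5:205006-207701) had 3.22 and 80.23 with its summit at 205851. HAT22 was therefore counted as lost at LHCB4.1 through the position of its summit, although its ABA peak covered the mock one. HB7 and ZAT6 had their only mock summits at this site and their counted ABA summits at other sites of LHCB4.1. They were counted as present in both treatments, although those ABA peaks met no mock peak of their factor. Within 500 bp, HB7 had 0 antenna genes under mock.

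LHCB5, which encodes CP26 on chromosome 4, had 6 factors in each treatment. GBF2, GBF3, NFYB2, NFYC2 and AT5G04760 were present in both, HSFA6A under ABA alone and RD26 under mock alone, and no ABF was present in either treatment. Each of the 5 shared factors had a summit between 8 bp outside and 25 bp inside the lower-coordinate end of the gene, in both treatments. NFYB2 had a second, weaker peak in each treatment, with 3.83 and 37.46 under ABA (chr4:6406288-6406687, summit 1514 bp from the gene) and 2.95 and 28.04 under mock (chr4:6405627-6406658, summit 1516 bp from the gene). At the gene end, GBF2 had a fold enrichment of 3.18 and a −log10 p of 73.75 under ABA (chr4:6407775-6408278), ranking 1914 of 10724, and 3.02 and 67.89 under mock (chr4:6407731-6408248), ranking 2125 of 10329. NFYC2 had 4.68 and 116.94 under ABA (chr4:6407679-6408594), ranking 593 of 8390, and 4.37 and 97.72 under mock (chr4:6407691-6408875), ranking 632 of 5781. AT5G04760 had 2.64 and 50.81 under ABA and 2.69 and 48.42 under mock, its second best rank at an antenna locus under ABA and its best under mock. RD26 under mock (chr4:6407620-6408164) had 2.51 and 35.92 and its summit 169 bp from the gene, inside the neighbour AT4G10330. The HSFA6A peak under ABA had 1.97 and 16.13, at the threshold of its list and 1423 bp from LHCB5. GBF3 had 2 further weak peaks under ABA beyond the higher-coordinate end, with −log10 p of 19.05 and 23.59.

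LHCB6 encodes CP24, which links the trimers to the core together with CP29, and had 16 factors under ABA and 13 under mock. All 29 of its peaks had summits in 1 site, between 5447862 and 5448081 on chromosome 1, at a median of 103 bp from the higher-coordinate end. GBF3 had a fold enrichment of 4.84 and a −log10 p of 140.5 under ABA (chr1:5447372-5448421), ranking 82 of 16320, and 4.86 and 146.95 under mock (chr1:5447276-5448422), ranking 23 of 14247. GBF2 had 3.99 and 107.44 under ABA (chr1:5447594-5448371), ranking 60 of 10724, and 3.77 and 100.27 under mock (chr1:5447561-5448393), ranking 106 of 10329. These GBF peaks were in the top 1.03% of their lists in both treatments, the best ranks of either factor at any antenna locus.

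ABF3 and ABF4 also ranked highest here among the antenna genes. ABF3 had 2.97 and 70.04 under ABA (chr1:5447592-5448309), ranking 1552 of 11273, and 2.93 and 64.08 under mock (chr1:5447496-5448191), ranking 1479 of 9243. ABF4 had 2.94 and 68.2 under ABA (chr1:5447570-5448314) and 2.83 and 57.56 under mock (chr1:5447628-5448272). ABF1 had 3.14 and 47.92 under ABA (chr1:5447750-5448177), ranking 2829 of 8512, and 2.27 and 16.42 under mock (chr1:5447758-5448161), ranking 2375 of 2494. ABF1 was thus near the end of the mock list here, as it was beside LHCB1.3. HB7, HAT22 and ANAC032 were present under ABA alone, with −log10 p of 31.9, 29.7 and 18.25, and the last of these ranked 6977 of 7977. The site lies in and beside the interval to AT1G15830 and AT1G15825, which have the same 29 entries, and with each summit given to its nearest gene alone LHCB6 kept 7 factors under ABA and 5 under mock.

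**Figure D3:**
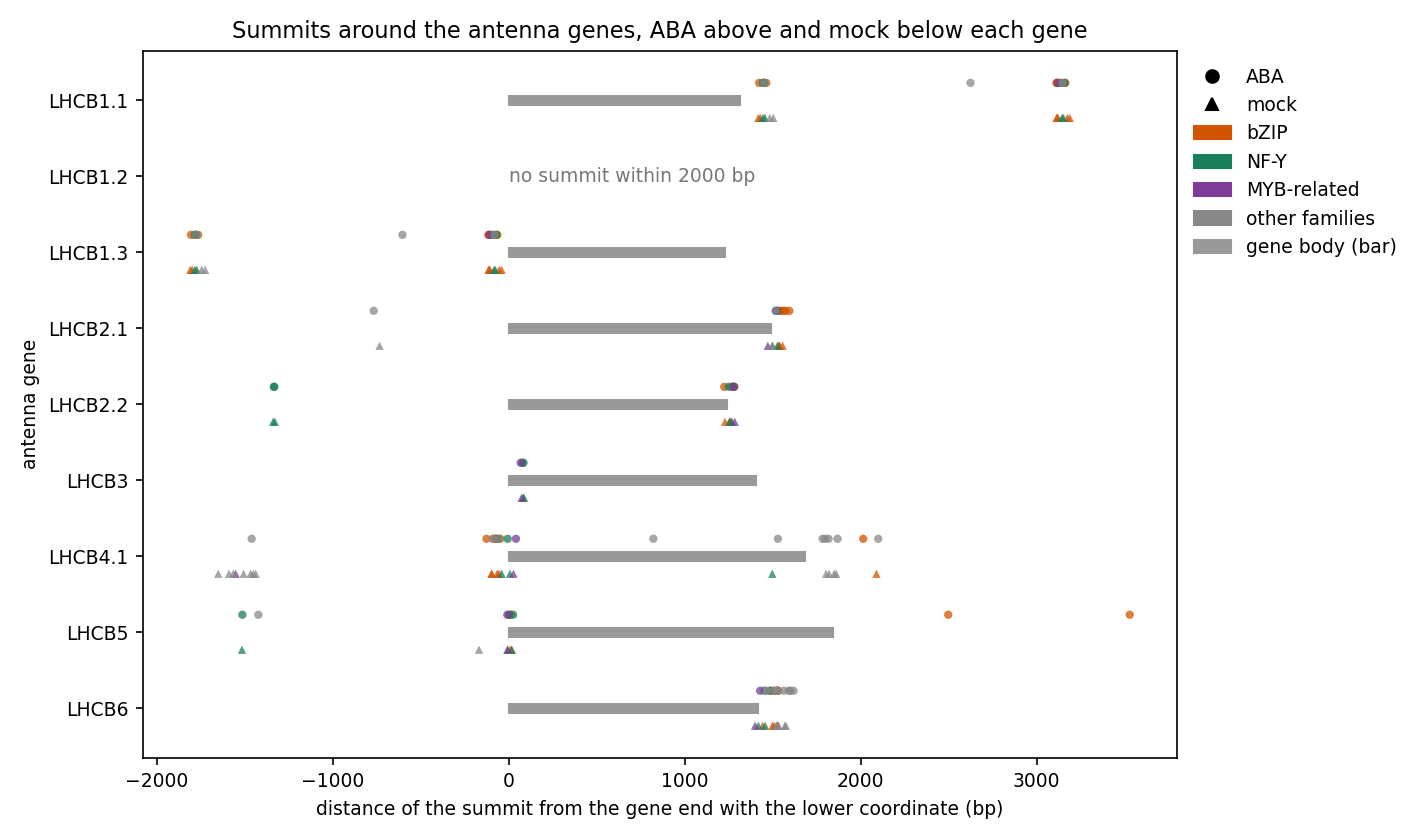
Position of every summit around the antenna genes (vertical axis), as the distance in bp from the gene end with the lower coordinate (horizontal axis). The grey bar is the gene, circles above it are ABA summits, triangles below it are mock summits, and colours give the factor family. At 8 genes many summits lie beside or just inside 1 gene end, and LHCB1.2 has none.

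Summits at the antenna genes lay mostly inside the gene or close to it. Of the 186 gene and peak combinations, 132 (71%) had the summit inside the gene or within 200 bp, against 42.1% of those over all protein-coding genes. The share counts summits anywhere inside the gene, and distance to the nearest gene end was not compared with all genes. Within 500 bp, 71 pairs of a gene and a factor (37.6%) remained under ABA and 61 (32.3%) under mock, while the shares over all genes were 28.2% and 19.1%. At this distance the antenna genes were thus above the background in both treatments. The gene table used here holds neither strand nor exons, so neither gene end can be called the promoter or the terminator. The end with the most factors was the higher-coordinate one at LHCB1.1, LHCB2.1, LHCB2.2 and LHCB6 and the lower-coordinate one at LHCB1.3, LHCB3, LHCB4.1 and LHCB5. LHCB4.1 also had summits of 6 factors under ABA and 5 under mock from 102 to 418 bp beyond its other end.

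Within their lists, the NF-Y and GBF peaks at antenna genes ranked well above the median of all genes, while those of ABF3 and ABF4 lay near it. For each locus the best peak of a factor was ranked by −log10 p, as a percentage of the list with 0 at the strongest. NFYC2 peaks had a median rank of 8.76% over the 7 loci under ABA (2.36 to 10.6%) and 10.9% under mock (3.56 to 14.4%). The median over all genes with an NFYC2 peak was 42.7% under ABA and 44.8% under mock. All 7 loci were thus in the top 15% of both NFYC2 lists.

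GBF3 had median ranks of 13% under ABA and 14.5% under mock at its 6 loci, against 36.5% and 38.6% over all genes with a peak. GBF2 had 15% under ABA and 12.6% under mock, against 39.9% and 40.3%. NFYB2 had 18.7% and 14.7% over 7 loci, against 38% and 39.8%. Among these 4 factors the exceptions were NFYB2 at LHCB3 under ABA (42.4%) and GBF2 at LHCB4.1 under mock (41.4%), which ranked below the median of all genes.

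AT5G04760 ranked nearer to the background, at 36% under ABA and 32% under mock, against 43.1% and 44.5% over all genes with its peaks. ABF3 had 49.5% under ABA and 37.2% under mock, against 41.7% in either treatment, and ABF4 had 42.2% and 42.5%, against 42.3% and 43.2%. ABF1 had 31.3% over 4 loci under ABA and 90.5% over 2 under mock, against 42.8% and 47.9%. Ranks of the 2 treatments come from lists of unlike length and give no change between them. No test was made, since peaks of 1 list and genes of 1 family are not independent.

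**Figure D4:**
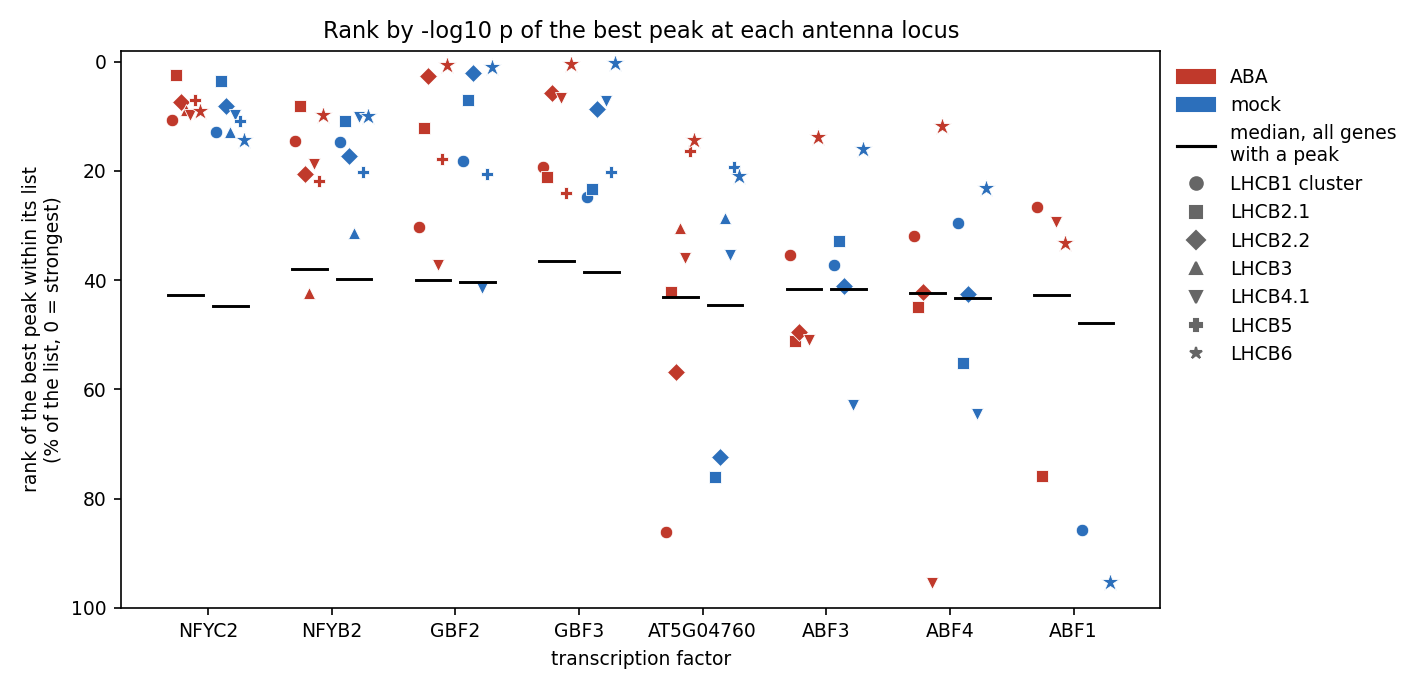
Rank of the best peak at each antenna locus within its list (vertical axis, percent of the list by −log10 p, inverted so that 0, the strongest, is at the top) for 8 factors (horizontal axis), with ABA in red left of mock in blue. Symbols give the locus and black lines the median over all genes with a peak of that factor. NFYC2 symbols all lie between 0 and 15% in both treatments, while ABF3 and ABF4 symbols scatter around the black lines.

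Most antenna peaks were in the same place in both treatments. The 9 genes had 157 distinct peaks, 82 under ABA and 75 under mock, at 18 sites made by joining summits up to 200 bp apart. Of the ABA peaks, 62 (75.6%) shared at least 1 bp with a mock peak of the same factor, against 63.3% over the whole lists. Of the mock peaks, 71 (94.7%) overlapped an ABA peak, against 94.4% over the whole lists, so this share was at the background. For the ABA peaks that met a mock peak, the nearest summits were a median of 9.5 bp apart, and 58 of 62 were within 50 bp. These distances start from the ABA peaks. Of the mock peaks, 71 overlapped an ABA peak, but only 62 of 75 (82.7%) had an ABA summit of their factor within 200 bp. That share was not computed over the whole lists. The 20 ABA peaks without a mock partner had a median −log10 p of 20.7 (16.09 to 52.27), against 59.1 for those with one. The 4 mock peaks without an ABA partner were those of HB5 in the LHCB1 interval and of RD26 at both sites of LHCB2.1 and at LHCB5. ABA peaks without a partner thus lay mostly near the threshold of −log10 p of 16.

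The pattern of presence most like that of LHCB4.1, the antenna gene with the most entries over the 42 lists (30), was found at AT3G02120, AT3G51730 and ETFBETA (AT5G43430). Each shared 30 of the 32 entries held by it or LHCB4.1, a Jaccard index of 0.938. Only 3 genes were listed, with ties taken by gene code, so others may be as alike. Of the 3 listed, 1 has a gene symbol. ETFBETA encodes a subunit of the mitochondrial electron transfer flavoprotein. None of their windows overlaps that of LHCB4.1.

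The other genes of the light-harvesting family held the GBF and NF-Y set too. Of 12 other antenna genes, among them those of photosystem I (LHCA), 12 had GBF2, GBF3, NFYB2 and NFYC2 under ABA and 10 under mock. The set was held by 35.3% of all genes under ABA and 27.4% under mock. LHCB1.4 and LHCB1.5 had the same 13 factors under ABA and the same 9 under mock, and whether they share peaks was not examined. The medians of all 12 other antenna genes were 13 factors under ABA and 9.5 under mock. Of the 12, 10 had more factors under ABA, 1 fewer and 1 the same number, where 75.5% of all genes had more. None passed the sign test. LHCB4.3 had the most with 20 factors under ABA and 17 under mock, followed by LHCB7 with 18 and 16, LHCA1 with 17 and 15, and LHCB4.2 with 16 and 10. LHCB4.2, a second CP29 gene, had the largest net difference of this list (exact sign test p = 0.0312, adjusted 0.186). This p was not set against the excess of gains over all genes.

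Genes for subunits of the photosystems and of Rubisco also held the set at nearly every member, at 17 of 18 under ABA and at 17 under mock. Over all genes the shares were 35.3% and 27.4%. RBCS1B and RBCS2B had the same 11 factors under ABA and the same 12 under mock, and whether they share peaks was not examined. The medians of these 18 genes were 13.5 factors under ABA and 12 under mock. Of them, 14 had more factors under ABA, 2 fewer and 2 the same number, where 75.5% of all genes had more. None passed the test. PSBO2 and PSBO1, which encode the manganese-stabilising proteins of photosystem II, had 19 factors each under ABA, against 16 and 15 under mock. PSBQ2 had 18 and 15, PSAK 17 and 13, RBCS1A 15 and 10, and PSAD1 11 and 5.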

How the data were processed

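Peak lists of 21 YPet-tagged factors under ABA and mock were analysed. Per the submitters' processing notes the build is TAIR10 and the tools include MACS2 2.0.10 and Bowtie 0.12.7, without the role of each. Per the file names and peak names, the authors pooled replicates within each group and kept peaks from a −log10 p of 16. The deposited columns used are the authors' fold enrichment (a ratio over their control), the authors' −log10 p, and the summit offset in bp. The labels do not say whether the ABA-labelled control libraries served the mock lists too; they were not analysed here, and 0 columns of per-sample values were left out.

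Samples were grouped by title. Summits were assigned to protein-coding genes of an NCBI table (TAIR10.1, without strand) within 2000 bp. As a check of positions, summits inside genes made up 33.8% of all summits at the deposited positions, and 37.5% and 37.4% after shifts of 100 bp to either side. The sign test (scipy 1.17.1, Python 3.11.15, threshold 0.05 on the adjusted p) was also run on simulated data. Recovery of planted genes was required only where all 21 factors changed. The simulation therefore does not bear on the antenna genes, which had at most 4 changes. The p of the test measures the spread between factors, not between libraries. Figures were drawn with matplotlib 3.10.9.

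All 9 members are named, as are up to 4 genes of each other list with the most factors under ABA, those with a net change of at least 5, and the 3 genes most like the member with the most entries. Members and lists were chosen with earlier results of these data known. The planned motif search was not run, since no promoter sequence was used here. Alternatives covered distance, assignment, thresholds, list length, factors, peak width and overlap.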

Additional observations from a re-analysis of the deposited data

How the results depend on the processing

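With the 2 lists of each factor at equal length, the difference between ABA and mock over the 9 genes reversed to -5 pairs, against 9 as reported, and so did the net numbers of factors at LHCB2.1 (-1) and LHCB4.1 (-3). Over all genes, the shares of pairs at equal length were 30.5% under ABA and 29.8% under mock; the cause was not tested. Counting any base of a peak within 2000 bp in place of the summit, an alternative chosen after seeing the data, gave a difference of 14. Of the mock peaks, 76% met an ABA peak at a reciprocal overlap of 50%, and 82.7% at summits within 200 bp, against 94.7%. The remaining alternatives (windows of 1000 and 500 bp, nearest gene, −log10 p of at least 20 or 32, the 18 factors whose lists both hold 500 peaks or more, and peaks of at most 5000 bp) gave 59 to 78 pairs under ABA and 51 to 69 under mock. No gene among all protein-coding genes, the antenna genes included, passed the sign test under any of them. The test therefore does not set the antenna genes apart. Of 162 numbers of factors at single genes over all these settings, those above included, 155 stayed within 1.5 times the reported one. The others were LHCB1.1 under ABA (6 within 1000 bp, within 500 bp and by nearest gene), LHCB4.1 (10 under ABA and 8 under mock at −log10 p of at least 32) and LHCB6 (7 and 5 by nearest gene). The 155 include every value of LHCB1.2, which had 0 factors in all settings and says nothing about stability. No paired analysis was possible because the lists pool the replicates and carry no replicate numbers, and for the same reason no replicate could be left out. The unknown depth limits every absence to these thresholds.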

Other observations

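Genes of chlorophyll synthesis, the pigment that the antenna proteins bind, had medians of 15 factors under ABA and 9 under mock over 14 genes. Of these, 12 had more factors under ABA, 1 fewer and 1 the same number, where 75.5% of all genes had more. CHLD, a subunit of the magnesium chelatase that starts the chlorophyll branch, had the largest net difference of all the lists. It had 18 factors under ABA and 6 under mock (exact sign test p = 0.000488, adjusted 0.14), and its mock set was GBF3, AT5G04760, HB5, HAT22, ANAC102 and RD26. This p was not set against the excess of gains over all genes, and lists of equal length were not examined for CHLD. CHLI2, another subunit of that enzyme, had 15 and 8, and GUN5, which encodes the third subunit, had 13 and 8. HEMA1, which encodes the glutamyl-tRNA reductase of the first committed step, had 17 factors under ABA and 10 under mock. CAO, which makes chlorophyll b, had 18 and 14, and the protochlorophyllide reductases PORB and PORC had 18 and 16, and 15 and 10. None of the 14 genes passed the sign test. The set of GBF2, GBF3, NFYB2 and NFYC2 was present at 9 of these 14 genes under ABA and 7 under mock. Over all genes the shares were 35.3% and 27.4%.

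Regulators of photosynthesis genes had medians of 17 factors under ABA and 15 under mock over 11 genes. Of these, 9 had more factors under ABA, 0 fewer and 2 the same number, where 75.5% of all genes had more. The phytochrome interacting factor gene PIF4 had 20 and 16, the clock gene CCA1 19 and 15, the light signalling gene HY5 19 and 15, PIF3 19 and 18, and PIF5 19 and 19. None passed the sign test.

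Patterns like those of LHCB6 and LHCB3 were looked up after their values were seen. Beside the neighbours that share its peaks, the gene most like LHCB6 was NET3A, with 29 of 30 entries shared. The 6 entries of LHCB3 were matched exactly by AT1G07700, AT1G07705 and AT1G48355.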
